A study of Mus musculus with 4 samples.

Results

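Ribosomes are built in the nucleolus, where RNA polymerase I makes a long precursor RNA that small nucleolar ribonucleoproteins (snoRNPs) modify and that large assemblies of processing factors cut and fold. The box C/D snoRNPs add methyl groups to ribose, the box H/ACA snoRNPs turn uridine into pseudouridine, and the small subunit processome, built in modules such as UTP-A, UTP-B, UTP-C and MPP10, prepares the 40S subunit. Fully grown mouse oocytes have stopped transcription and carry stored mRNAs, which are degraded or polyadenylated again during meiotic maturation. The level of an mRNA in such cells can therefore depend on storage, decay and poly(A) tail, and new synthesis was not measured here.

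The genes described here are 48 of the 21957 genes of the expression table. They were taken by symbol, as every mouse gene named *Utp*, *Nop*, *Rrp* or *Nol* with a number, *Imp3* and *Imp4*, together with *Fcf1*, *Nat10*, *Fbl*, *Ncl*, *Npm1*, *Dkc1*, *Nhp2*, *Gar1*, *Bysl* and *Emg1*. The rule works on names alone, although the group was picked for description with earlier results of these data known. Of the 48 genes, 45 encode known factors of ribosome assembly or of the nucleolus. The other 3, *Nol3*, *Nol4* and *Nol4l*, share the name but are not known as assembly factors. They are included in the counts below, and key values are also given without them.

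Germinal vesicle (GV) oocytes came from B6D2F1 (C57BL/6 x DBA) females aged 6 to 8 weeks that had been primed with gonadotropin, and they were freed of cumulus cells. They were sequenced at 0 h (GV), after 12 h in M16 medium without drug when a polar body was present (MII), or after 12 h with the HDAC6 inhibitor tubastatin A at 10 μM (TubA-10) or 20 μM (TubA-20). Where 4 values follow a gene with no library named, they run from GV to MII, TubA-10 and TubA-20. Each condition was 1 library, from a pool of 100 oocytes by the methods of the study, although the title given to the deposited series speaks of single cells. The treatment field contradicts the sample descriptions and the methods of the study, with 20 μM at TubA-10 and 11 μM at TubA-20. The doses of the descriptions and methods are used here. MII oocytes were picked for maturity while oocytes under the higher dose did not reach that stage by the study's account, so drug and meiotic stage cannot be told apart.

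With 1 library per condition there is no replicate error, and no difference below has a p-value. Levels are FPKM, fragments scaled to transcript length and to the mapped fragments of the library. A change is log2 of the ratio of FPKM + 1, and a gene is said to have risen or fallen only when it passed 2-fold on that scale. From steps between low FPKM values, TubA-10 had about 1.68 times, MII about 1.64 times and TubA-20 about 0.893 times the depth of GV. Only 24.1% and 17.9% of the values near the step lay on it for TubA-10 and MII, against 67% for TubA-20, so these are estimates. They do not settle whether TubA-20 or GV was the deeper, since the read totals stated by the study put TubA-20 slightly above GV. FPKM are shares of a library, so RNA per oocyte was not measured, and because the mRNA was caught on oligo(dT), fewer transcripts and shorter poly(A) tails cannot be told apart. The 11 oocyte markers summed to between 10321 and 14230 FPKM in the 4 libraries with none at 0, 15 cumulus and granulosa cell markers to between 22 and 29.6 FPKM with 3 to 6 of them at 0, and 6 blood markers to at most 0.0347 FPKM.

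All 48 genes were above 0 in every library. Their mean over the 4 libraries was at least 5 FPKM for 37 genes, below 5 for 11 and below 1 for 3 (*Nop2*, *Nop16* and *Nol3*). The median level of the 48 was 19.8, 14.4, 15 and 12.8 FPKM in the order of libraries given above. Their sum was 4520, 3415, 3608 and 4060 FPKM, which was 0.725%, 0.601%, 0.611% and 0.647% of all FPKM. *Npm1* alone made up 26.6% of that sum in GV and 53.7% in TubA-20. Without it the sum was 3316 FPKM in GV and between 1854 and 1897 in the other 3 libraries. Most of that difference lay in *Fcf1*, *Emg1* and *Nol12*, which together held 1811, 206, 313 and 75 FPKM. The remaining 44 genes summed to 1504, 1648, 1584 and 1805 FPKM. These 3 genes were set apart with their large falls from GV known. That the remaining sum was lowest in GV therefore depends on this choice and does not describe the typical gene of the group.

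**Figure D1:**
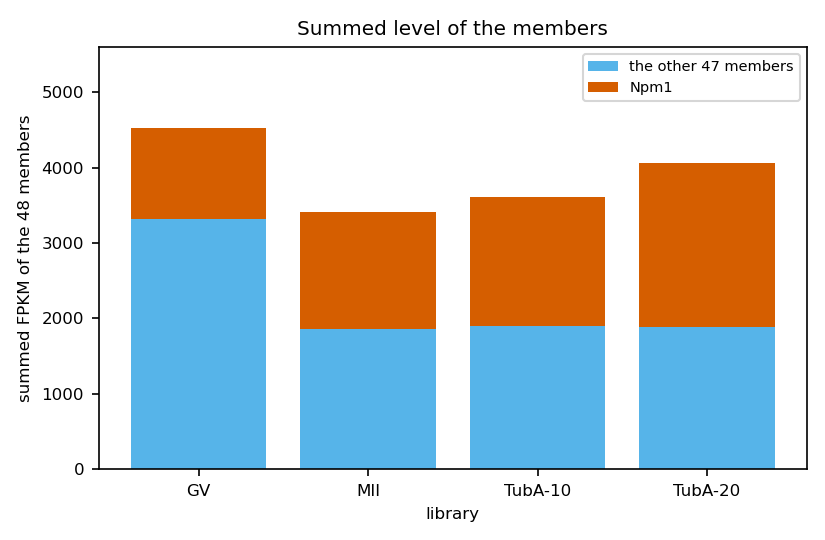
Summed FPKM of the 48 genes in each library, with *Npm1* (orange) stacked on the other 47 genes (blue). The blue part is at 3316 FPKM in GV and between 1854 and 1897 FPKM after culture, while *Npm1* goes from 1204 FPKM in GV to 2179 in TubA-20. Without *Fcf1*, *Emg1* and *Nol12*, picked for their large falls, the blue part would be 1504 FPKM in GV, against 1584 to 1805.

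Against GV, the genes split into falls of up to 31.1-fold and rises of under 3-fold. In TubA-20, 12 of 48 (25%) fell and 2 rose. Of all genes, 11.7% fell and 7.61% rose, and of the 7148 genes with a mean of at least 5 FPKM, 24.7% fell and 21% rose. Of the 37 genes of the group that had such a mean, 9 (24.3%) fell and 2 (5.41%) rose. The share that fell was thus close to that of well-expressed genes. The share that rose was lower, at 4.17% of the 48 and 5.41% of the 37. In MII, 10 of 48 (20.8%) fell and 1 rose, and of the 37, 9 (24.3%) fell and 1 (2.7%) rose. There 8.34% of all genes fell and 3.05% rose, and 18.9% and 8.6% of well-expressed genes. In TubA-10, 8 of 48 (16.7%) fell and 0 rose, and of the 37, 7 (18.9%) fell and 0 rose. Beside these, 5.6% of all genes fell and 0.742% rose, and 12.6% and 1.8% of well-expressed genes. The 48 genes had a median log2 change of −0.27 for TubA-20, −0.08 for MII and −0.16 for TubA-10, and all genes 0.00 each time. For the 37 of them with a mean of at least 5 FPKM it was −0.07, 0.02 and 0.09, beside 0.28, 0.17 and 0.19 for the well-expressed genes. Without *Nol3*, *Nol4* and *Nol4l* the same 12, 10 and 8 falls were among 45 genes (26.7%, 22.2% and 17.8%), and the medians were −0.36, −0.12 and −0.19. With levels scaled to equal *Gapdh*, 5 rose and 12 fell for TubA-20, and 5 rose and 10 fell for MII. Of all 21957 genes, 1915 rose and 2421 fell under that scaling for TubA-20, and 1493 rose and 1423 fell for MII. These 3 comparisons share the GV library.

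**Figure D2:**
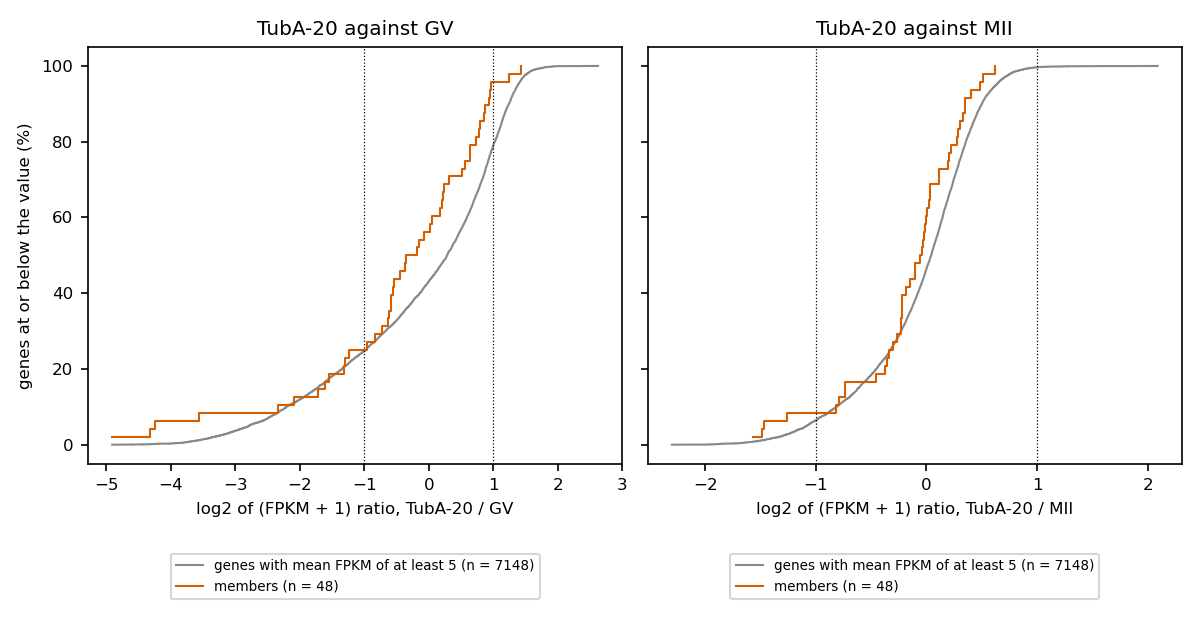
Cumulative share of genes by log2 change for TubA-20 against GV (left) and against MII (right), for the 48 genes (orange) and for the 7148 genes with a mean of at least 5 FPKM (grey), with dotted lines at 2-fold. The orange steps at far left on the GV axis are *Fcf1*, *Nol12*, *Emg1* and *Nhp2*, and only 2 of the 48 lie to the right of 2-fold there.

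TubA-20 and MII were compared directly because they had the same time in culture. Here 4 of 48 genes (8.33%) fell and 0 rose, where 2.44% of all genes fell and 0.328% rose, and 6.41% and 0.364% of well-expressed genes. The 4 were *Fcf1*, *Nol12*, *Nhp2* and *Emg1*, with log2 changes of −1.57, −1.49, −1.47 and −1.26. The count was 8 or 9 with a pseudocount of 0.1 or 0.01 FPKM, beside 7.59% and 13.4% of all genes, and 0 at 3-fold, beside 0.278%. The median of the 48 was −0.05, beside 0.00 for all genes. Of the 37 with a mean of at least 5 FPKM, 4 (10.8%) fell and 0 rose, and their median was −0.03, beside 0.04 for well-expressed genes. The largest increases, none past 2-fold, were those of *Nop10* (0.62), *Npm1* (0.48), *Ncl* (0.40) and *Gar1* and *Dkc1* (0.35 each), if *Nol4* at 0.51 but only 3.5 FPKM is left aside.

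TubA-10 differed little from MII. None of the 48 genes passed 2-fold in either direction, beside 0.515% of all genes higher and 0.128% lower, and 1.23% and 0.154% of well-expressed genes. The highest values were those of *Rrp7a* (0.91), *Emg1* (0.85), *Utp4* (0.71) and *Nhp2* (0.58), and the lowest those of *Dkc1* (−0.51), *Nol8* (−0.36), *Ncl* (−0.35) and *Nol10* (−0.33), again among genes with a mean of at least 5 FPKM. Between the doses, TubA-20 against TubA-10, 6 of 48 (12.5%) fell and 0 rose, where 5.52% of all genes fell and 0.66% rose, and 14.4% and 1.32% of well-expressed genes. Those 6 were *Emg1* (−2.12), *Nhp2* (−2.06), *Fcf1* (−2.02), *Nol12* (−1.69), *Utp4* (−1.08) and *Nop9* (−1.07).

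**Figure D3:**
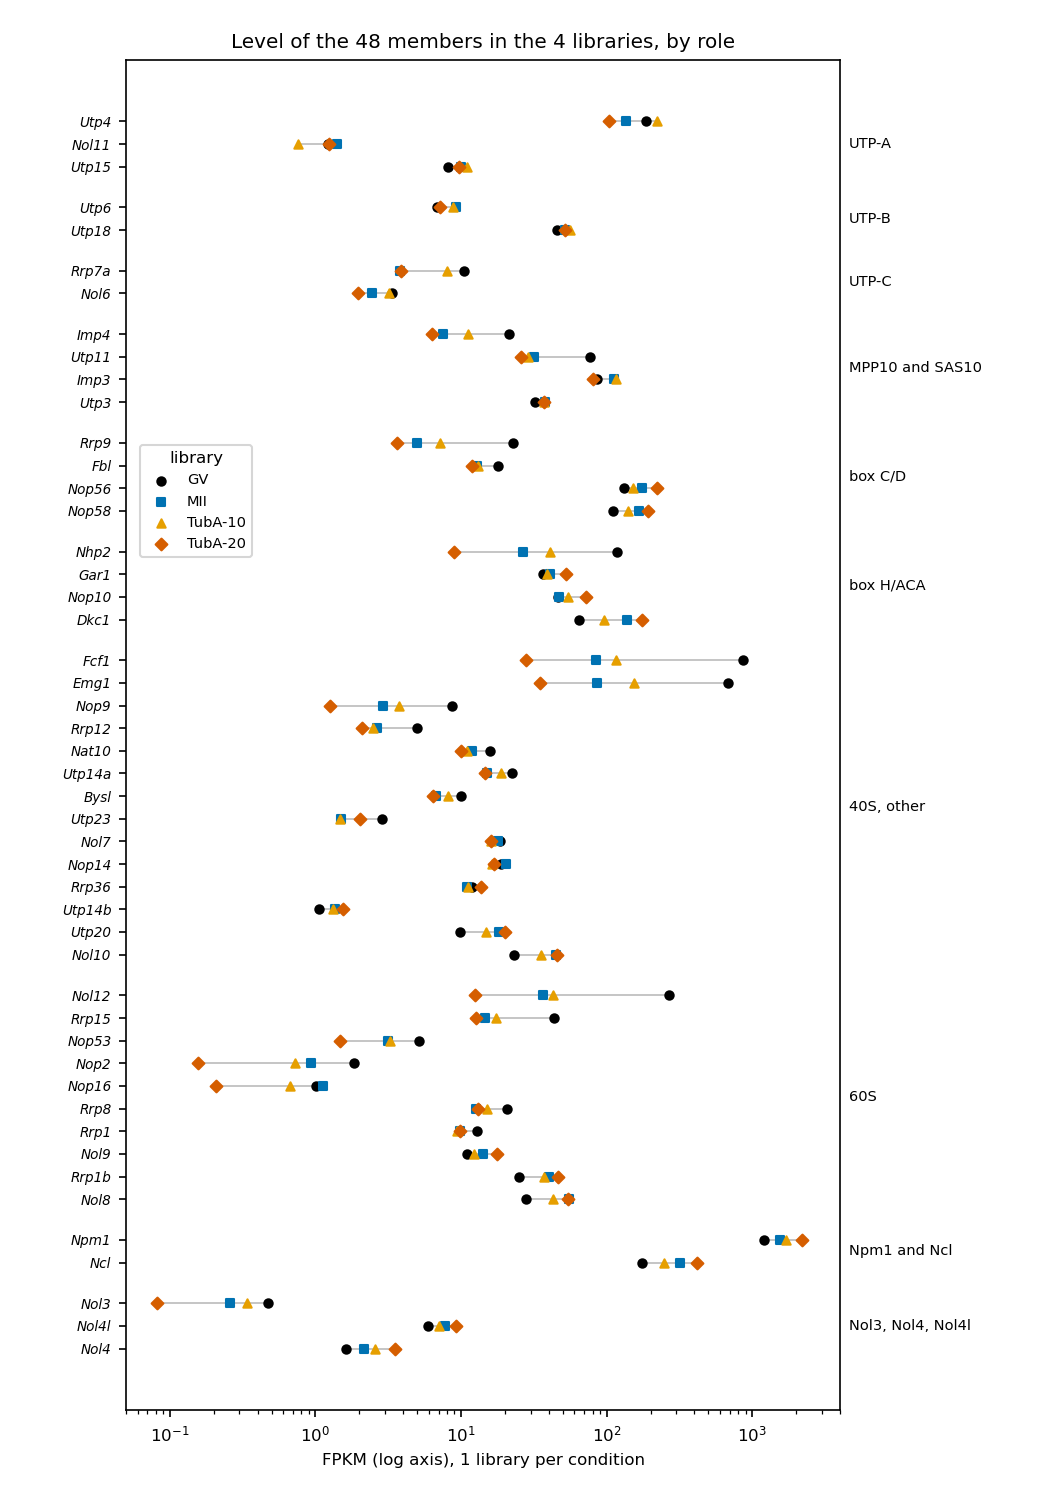
FPKM on a log axis of each of the 48 genes in the GV (black circle), MII (blue square), TubA-10 (light orange triangle) and TubA-20 (dark orange diamond) libraries, grouped by role, with a grey line over each gene's range. *Fcf1*, *Emg1*, *Nol12* and *Nhp2* span more than 10-fold with GV at the top and TubA-20 at the bottom, while *Dkc1*, *Ncl* and *Npm1* have GV at the bottom and TubA-20 at the top.

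Many of the genes followed one of 2 opposite orders, which were as common among well-expressed genes and so are no trait of the group. GV was highest and TubA-20 lowest, with TubA-10 above MII, in 14 of 48 genes (29.2%), beside 23.2% of well-expressed genes. The reverse order, with TubA-20 highest and TubA-10 between GV and MII, held in 11 genes (22.9%), beside 29.8%. TubA-10 lay between GV and MII in 31 of the 48 (64.6%), beside 68.8%. GV was the highest library for 23 genes (47.9%, beside 34.4% of well-expressed genes) and the lowest for 19 (39.6%, beside 50.3%). This second order was looked for once the values were known. Under the 4 scalings 14 to 16 genes held the one order and 9 to 10 the other.

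Box H/ACA snoRNPs contain 4 core proteins, and their mRNAs moved apart. *Dkc1* (X chromosome, 75095854 to 75109777), which encodes dyskerin, the pseudouridine synthase of the particle, was at 64.6, 137, 96.5 and 175 FPKM. It was lowest in GV and highest in TubA-20, with log2 changes against GV of 1.08, 0.57 and 1.43 for MII, TubA-10 and TubA-20. The rise in MII was 0.95 with the median change set to 0. *Nhp2* (chromosome 11, 51619735 to 51623714), which encodes a small RNA-binding subunit, was at 117, 26.7, 40.6 and 8.99 FPKM. It fell in all 3 cultured libraries, with log2 changes of −2.09, −1.50 and −3.56. *Gar1* was at 36.3, 41, 38.8 and 52.4 FPKM, and *Nop10* at 46.2, 47, 54.1 and 72.6. Neither passed 2-fold in any comparison, and both were highest in TubA-20 (log2 changes against GV of 0.52 and 0.64).

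A ratio of 2 genes within a library does not depend on how libraries are scaled. The ratio of *Dkc1* to *Nhp2* FPKM was 0.552 in GV, 2.38 in TubA-10, 5.14 in MII and 19.5 in TubA-20, so *Nhp2* was the more abundant mRNA in GV and the less abundant in the others. The ratio of *Gar1* to *Nop10* stayed between 0.717 and 0.872. The pairs compared here and below were chosen with their values known.

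Box C/D snoRNPs share the methyltransferase fibrillarin (*Fbl*) and the scaffold proteins NOP56 and NOP58, and *Rrp9* encodes a protein particular to the U3 snoRNP of the processome. *Nop56* was at 132, 174, 152 and 220 FPKM, and *Nop58* at 110, 167, 140 and 191. Both were lowest in GV and highest in TubA-20 without passing 2-fold (log2 changes of 0.73 and 0.80), and their ratio stayed between 1.05 and 1.2. *Rrp9* (chromosome 9, 106475963 to 106485424) was at 22.6, 4.96, 7.14 and 3.65 FPKM and fell in all 3 cultured libraries, with log2 changes of −1.99, −1.54 and −2.35. *Fbl* was at 17.8, 12.9, 13.1 and 11.9 FPKM, a log2 change of −0.54 in TubA-20. The ratio of *Nop56* to *Rrp9* ran from 5.82 in GV to 35.2, 21.3 and 60.2 in the cultured libraries. In both kinds of snoRNP, then, 1 gene fell while others were highest in TubA-20, and for box C/D it was the U3 gene *Rrp9*, not a shared one. Of well-expressed genes, 42.7% were highest in TubA-20, beside 31.2% of the 48, and 24.7% fell there against GV. Such a mix is thus no trait of the snoRNP genes alone.

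**Figure D4:**
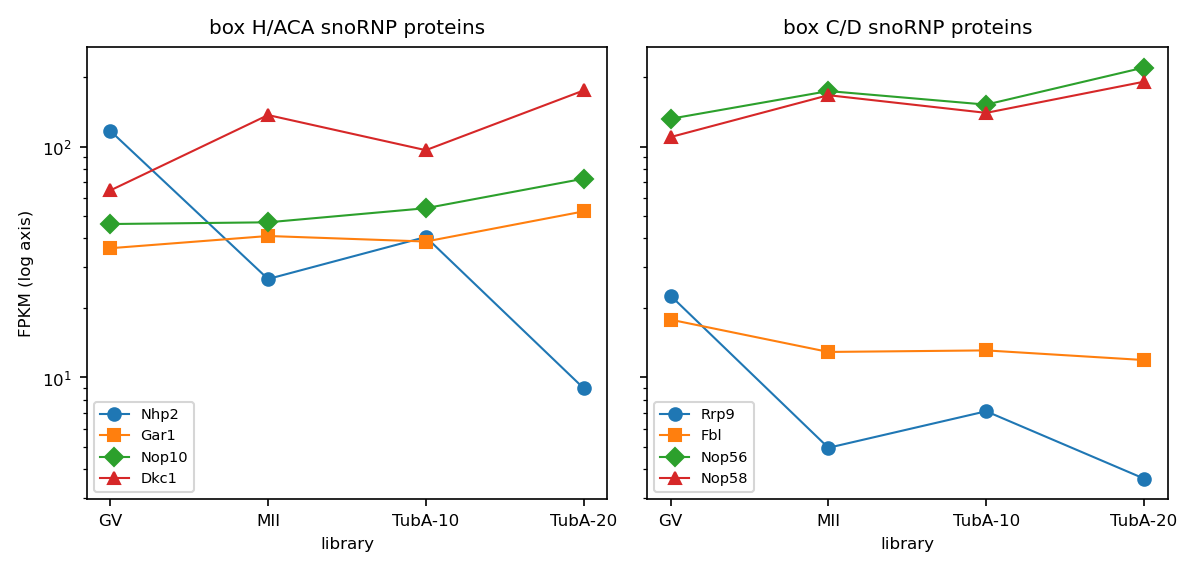
FPKM on a log axis of the box H/ACA (left) and box C/D (right) snoRNP protein genes in the 4 libraries, with lines that only join the values of a gene. *Nhp2* goes from 117 FPKM in GV to 8.99 in TubA-20 and *Rrp9* from 22.6 to 3.65, while *Dkc1*, *Nop56* and *Nop58* are highest in TubA-20.

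The 14 other genes of 40S processing held the largest fall. *Fcf1* (chromosome 12, 84970897 to 84983303) encodes UTP24, a PIN-domain endonuclease of the processome. GV held 865 FPKM of it, MII 84.4, TubA-10 116 and TubA-20 27.8, so GV was 31.1 times TubA-20 and 10.2 times MII. Its log2 change in TubA-20, −4.91, was the lowest of all 21957 genes. *Emg1* (chromosome 6, 124704085 to 124712178), a methyltransferase that acts on a pseudouridine of the small subunit RNA, was at 679, 85.4, 155 and 34.9 FPKM, with log2 changes against GV of −2.98, −2.12 and −4.24 in MII, TubA-10 and TubA-20. In GV these mRNAs were the most abundant of the 48 after *Npm1*, and they were lower in every cultured library by more than 4-fold. *Nop9*, an RNA-binding factor, was at 8.61, 2.9, 3.74 and 1.26 FPKM. Its log2 changes were −1.30, −1.02 and −2.09, and its TubA-10 value did not pass 2-fold under 3 of the 4 scalings.

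Other 40S factors changed less or in the opposite direction. *Utp20*, a long helical-repeat scaffold, was at 9.87, 18.3, 14.8 and 19.9 FPKM, and *Nol10* at 23, 44.9, 35.5 and 45.8. Their log2 changes against GV were 0.95 and 0.96 in TubA-20 and passed 2-fold there with equal *Gapdh* (1.01 and 1.03). *Utp20* also passed there with a pseudocount of 0.1 or 0.01 FPKM. In MII the changes were 0.83 and 0.93, and both passed with equal *Gapdh* (1.04 and 1.15). *Nol10* passed in MII with equal FPKM sums as well (1.06). *Nat10*, the RNA acetyltransferase of the nucleolus, was at 15.9, 11.8, 10.9 and 9.97 FPKM, with log2 changes against GV of −0.40, −0.50 and −0.62 and of −0.22 for TubA-20 against MII. *Bysl*, needed for late steps of the 40S subunit, was at 10, 6.68, 8.08 and 6.37 FPKM, and *Rrp12* at 4.98, 2.63, 2.5 and 2.08. *Utp14a* (−0.59), *Utp23* (−0.36), *Nol7* (−0.18), *Nop14* (−0.16), *Rrp36* (0.18, and −0.01 with the median change set to 0) and *Utp14b* (0.32) made up the rest in TubA-20 against GV. *Utp14b* overlaps exons of *Acsl3* on the same strand over 244 bases, and *Acsl3* was at 54.1 to 97.5 FPKM against 1.05 to 1.55 for *Utp14b*, whose values are therefore uncertain.

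The modules of the processome held few genes each. The UTP-B genes *Utp6* and *Utp18* passed 2-fold in no comparison and were at 6.88, 9.29, 8.76 and 7.15 FPKM and at 45.3, 51.9, 56.3 and 52.1 FPKM. Of the UTP-A genes, *Utp4* was at 187, 135, 222 and 104 FPKM. It was highest in TubA-10 and lowest in TubA-20, 1.08 lower on the log2 scale than in TubA-10. *Utp15* was at 8.1 to 10.9 FPKM and *Nol11* at 0.756 to 1.41. In UTP-C, *Rrp7a* was at 10.5, 3.8, 7.99 and 3.89 FPKM, so GV and TubA-10 stood above MII and TubA-20, and its log2 changes were −1.27 in MII and −1.24 in TubA-20. *Nol6*, the other gene of UTP-C, had 3.33, 2.45, 3.2 and 1.96 FPKM.

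The MPP10 module holds another divided pair. *Imp3* and *Imp4* encode U3-associated proteins that bind the same partner. *Imp3* was at 85.1, 112, 116 and 81 FPKM and passed 2-fold in no comparison. *Imp4* was at 21.3, 7.55, 11.2 and 6.3 FPKM and fell by 1.38 in MII and 1.61 in TubA-20, with −0.88 in TubA-10. The ratio of *Imp3* to *Imp4* was 3.99 in GV and 10.4 to 14.8 in the other libraries. *Utp11* was at 77, 31.9, 28.9 and 25.6 FPKM and fell in all 3 (−1.25, −1.38 and −1.55), whereas *Utp3* was at 32, 37.8, 37.2 and 37.3.

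Of the 10 genes of 60S processing, 4 (40%) fell in TubA-20 against GV and 0 rose. Beside these, 11.7% of all genes fell and 7.61% rose, and 24.7% and 21% of well-expressed genes. Of the 4 that fell, *Nop53* and *Nop2* had a mean below 5 FPKM, so only *Nol12* and *Rrp15* can be set beside the well-expressed genes. *Nol12* (chromosome 15, 78934933 to 78943638), which encodes an RNA-binding factor of pre-rRNA cleavage, was at 268, 36.7, 42.5 and 12.5 FPKM, with log2 changes against GV of −2.83, −2.63 and −4.32. *Rrp15* was at 43.6, 14.5, 17.4 and 12.6 FPKM and fell in each, with log2 changes of −1.53, −1.28 and −1.71. *Nop53*, which brings the RNA exosome to the precursor, was at 5.15, 3.13, 3.27 and 1.47 FPKM and fell in TubA-20 by 1.32. *Nop2*, a cytosine methyltransferase of the large subunit RNA, was at 1.85, 0.932, 0.728 and 0.156 FPKM. Its log2 change in TubA-20 was −1.30, and at such levels FPKM + 1 hides much of a change. *Nop16* was at 1.01, 1.12, 0.665 and 0.207.

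The other 60S genes passed 2-fold in no comparison as deposited and lay on both sides of 0. *Nol8* was at 27.9, 55.4, 43.1 and 54.4 FPKM, with log2 changes against GV of 0.97, 0.61 and 0.94. With equal *Gapdh* it passed 2-fold in both MII (1.19) and TubA-20 (1.01). In MII it also passed with equal FPKM sums and with equal upper quartiles. *Rrp1b* was at 24.8, 40.3, 37.1 and 46.5 FPKM and its relative *Rrp1* at 12.9, 9.87, 9.44 and 9.82, so that the ratio of *Rrp1b* to *Rrp1* was 1.92 in GV and 3.93 to 4.73 after culture. *Nol9*, a polynucleotide kinase of the internal spacer, was at 10.9, 14.2, 12.3 and 17.6 FPKM. *Rrp8* was at 20.7, 12.7, 15.1 and 13 FPKM, highest in GV, with log2 changes of −0.66, −0.43 and −0.63.

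*Npm1* and *Ncl* encode nucleophosmin and nucleolin, the abundant multifunctional proteins of the nucleolus. *Npm1* (chromosome 11, 33152287 to 33163206) was at 1204, 1560, 1711 and 2179 FPKM, with log2 changes against GV of 0.37, 0.51 and 0.86, none past 2-fold. *Ncl* (chromosome 1, 86344719 to 86359400) was at 176, 317, 248 and 420 FPKM. It rose in TubA-20 by 1.25, and its changes in MII and TubA-10 were 0.84 and 0.49. The MII change of *Ncl* passed 2-fold with equal *Gapdh* (1.07). Both were highest in TubA-20, and together with *Dkc1* the gene *Ncl* makes up the 2 rises of the 48. *Nol4l* and *Nol4* were at 9.2 and 3.5 FPKM in TubA-20 against 5.92 and 1.61 in GV, and *Nol3* went from 0.472 to 0.0813.

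Genes of the pathway outside the naming rule were counted in the same way. Of 105 such genes in 4 lists (small subunit, large subunit, RNA polymerase I and RNA exosome), 24 (22.9%) fell and 6 (5.71%) rose in TubA-20 against GV, with a median log2 change of −0.20. Of well-expressed genes 24.7% fell and 21% rose there, and of all genes, as unfiltered as the lists, 11.7% and 7.61%. In MII 14 (13.3%) fell and 0 rose, beside 18.9% and 8.6% of well-expressed genes and 8.34% and 3.05% of all genes. In TubA-10 12 (11.4%) fell and 0 rose, beside 12.6% and 1.8%, and 5.6% and 0.742% of all genes. Against MII, 6 (5.71%) fell in TubA-20 and 0 rose, beside 6.41% and 0.364%, and 2.44% and 0.328% of all genes. The single lists in TubA-20 against GV are to be read beside the 11.7% and 7.61% of all genes and the 24.7% and 21% of well-expressed genes. The small subunit list had 7 falls (24.1%) and 2 rises among 29 genes, and the large subunit list 9 (20%) and 3 among 45. The polymerase I list had 5 falls (29.4%) and 1 rise among 17, and the exosome list 3 (21.4%) and 0 among 14. The lowest and highest changes were those of *Fam207a* (−3.12) and *Riok1* (1.17) in the small subunit list, *Mrto4* (−3.45) and *Efl1* (1.31) in the large subunit list, and *Znrd1* (−4.56) and *Cd3eap* (1.07) in the polymerase I list. *Exosc5* went from 91.4 FPKM in GV to 5.14 in TubA-20 (−3.91), while *Mphosph6*, an exosome cofactor, was the highest of its list at 0.67.

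The cytoplasmic polyadenylation element (CPE) is a U-rich motif near the end of stored mRNAs that, bound by CPEB, directs their polyadenylation during maturation. It was searched on the mRNA strand, in the spellings TTTTAT and TTTTAAT, in the last 300 bases of the 3′ UTR of the principal GENCODE M21 transcript of each gene. The annotated ends may not be those used in oocytes. Of the 48 genes, 19 (39.6%) held a match, beside 30.8% of all coding genes in the table and 36.1% of those with a mean of at least 5 FPKM. The 4 of them with the largest increases past or near 2-fold in TubA-20 against GV, and the 3 with the largest falls, are shown with up to 10 bases on each side and the motif in capitals, on GRCm38.
Dkc1, chrX:75109738-75109763, plus strand: gagagaatatTTTTATtaaaagtctg
Nol10, chr12:17430042-17430067, plus strand: tttaagctatTTTTATatcaagggta
Utp20, chr10:88746607-88746628, minus strand: aattaaaatgTTTTATatgcta
Rrp1b, chr17:32062843-32062865, plus strand: agaaatgtatTTTTATcttcgga
Emg1, chr6:124704381-124704405, minus strand: ctataaagagTTTTATttcgttttt
Rrp15, chr1:186721247-186721273, minus strand: aaagctgtatTTTTAATtcttacagaa
Utp11, chr4:124678197-124678222, minus strand: tctattctatTTTTATaacattattg

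The match nearest the transcript end is the one shown, and *Utp20* held 3 in the window and *Utp11* 2. Over the 19 genes it ended between 6 (*Utp20*) and 279 bases (*Rrp15*) before the transcript end, at 9 bases in *Emg1* and at 229 in *Npm1*. The median log2 change of TubA-20 against GV was 0.20 for the 19 genes with a match and −0.54 for the 29 without. For coding genes with a mean of at least 5 FPKM the medians were 0.70 and −0.09. Among the 19, 4 fell (21.1%) and 1 rose (5.26%). Of all coding genes with a match 6.64% fell and 13.2% rose, and of those with a mean of at least 5 FPKM 11.7% and 29.7%. Among the 29, 8 fell (27.6%) and 1 rose (3.45%). Of all coding genes without a match 14.8% fell and 5.64% rose, and of those with a mean of at least 5 FPKM 32% and 16%. In TubA-20 against MII the medians were 0.01 and −0.11 for the 48 genes, beside 0.15 and −0.04 for coding genes. With a match anywhere in the 3′ UTR (28 of 48 genes) the medians against GV were 0.03 and −0.49, beside 0.63 and −0.67 for coding genes. The shares that fell then had the opposite order, 8 of the 28 (28.6%) and 4 of the 20 without (20%), where 12.7% and 43.3% of coding genes with a mean of at least 5 FPKM fell, and 7% and 18.6% of all coding genes. *Fcf1*, *Nol12*, *Nhp2* and *Rrp9* had no match in the last 300 bases, and neither had *Ncl*, whose annotated 3′ UTR is 5901 bases long.

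**Figure D5:**
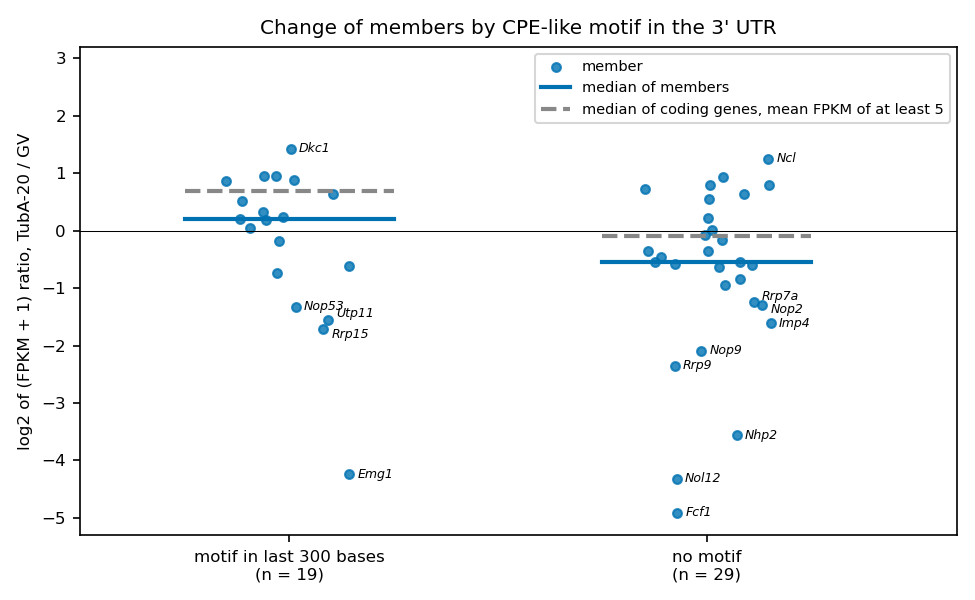
Log2 change of TubA-20 against GV for the 48 genes with (left, n = 19) and without (right, n = 29) a CPE-like motif in the last 300 bases of the 3′ UTR; points are genes, spread sideways for visibility, blue lines their medians (0.20 and −0.54) and dashed grey lines the medians of coding genes with a mean of at least 5 FPKM (0.70 and −0.09). *Emg1* is far below the other genes with a motif.

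Coding length was set beside the changes. The 12 genes that fell in TubA-20 against GV had a median coding length of 844 bases, between 462 (*Nhp2*) and 2385 (*Nop2*), and the other 36 one of 1701 bases, between 195 (*Nop10*) and 8370 (*Utp20*). Across the 48 genes the Spearman coefficient of coding length with that change was 0.35, and across 7134 coding genes with a mean of at least 5 FPKM it was 0.28. It was 0.15 and 0.09 for TubA-20 against MII, and 0.38 and 0.35 for MII against GV, where no drug was used. Transcript length gave 0.24 and 0.37 for TubA-20 against GV, and 3′ UTR length 0.06 and 0.30. The ranges overlapped widely, and *Nop10* and *Imp3*, with short coding regions, did not fall.

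An E-box with the letters CACGTG, the motif that MYC and related factors bind, was searched in RefSeq promoter windows of GRCm38.p6, from 250 bases before to 50 after the start. It is the same on both strands. Windows were at hand for 37 of the 48 genes, and 8 of them (21.6%) held it, beside 9.2% of the windows of all coding genes and 12.2% of those with a mean of at least 5 FPKM. *Imp4*, *Rrp7a* and *Nop2* fell in TubA-20 and are shown beside *Utp18* (0.20) and *Utp20* (0.95), which did not pass 2-fold as deposited, with the E-box in capitals. The other 3 were *Utp4* (−0.84), *Nol11* (0.02) and *Utp14b* (0.32).
Imp4, chr1:34439698-34439723, plus strand: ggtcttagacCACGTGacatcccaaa
Rrp7a, chr15:83122994-83123019, minus strand: gcctgtgcacCACGTGtcctggaact
Nop2, chr6:125131813-125131838, plus strand: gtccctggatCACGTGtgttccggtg
Utp18, chr11:93885771-93885796, minus strand: gagcgccggtCACGTGgcttgcggcg
Utp20, chr10:88826765-88826787, minus strand: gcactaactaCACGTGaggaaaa

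The median log2 change of TubA-20 against GV was −0.41 for the 8 genes with the E-box and −0.07 for the 29 without, while for coding genes with a mean of at least 5 FPKM it was 0.29 and 0.30. Of the 8, 3 fell and 0 rose, and of the 29, 6 fell and 2 rose. Among those coding genes 23.3% with the E-box fell and 20.6% rose, and without it 24.5% fell and 20.9% rose. Among all coding genes 15.4% with the E-box fell and 10.4% rose, and without it 11.9% fell and 7.82% rose. *Fcf1*, *Fbl* and *Npm1* were not among the genes with a window.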

How the data were processed

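Expression was measured by RNA-seq in 4 libraries of mouse oocytes, 1 per condition. The authors deposited FPKM values, made per the labels (the submitters' processing notes) with STAR 2.5.0, Cufflinks and Cuffdiff 2.2.1 on mm10, and by the methods of the study with a strand-specific library type. Symbols were joined by Ensembl identifier (21794 of 21959 entries), and entries with the same symbol were summed. Log2 ratios of FPKM + 1 were computed, and genes past 2-fold were counted over the whole table without a filter. No test was possible with 1 library per group. By rule, the members with the largest changes (mean of at least 5 FPKM) and the snoRNP, nucleolar and MPP10 genes were named, the others with their role, and of each pathway list the genes with the lowest and highest change. *Exosc5* and *Mphosph6* come from that rule, and *Acsl3* was added for its overlap. The members, taken by symbol alone, and the lists were chosen with earlier results of these data known. Roles of genes are background knowledge. Gene coordinates and transcripts are those of GENCODE M21 (GRCm38), promoter windows those of RefSeq. Near-identical copies were searched with blastn 2.17.0 (at least 95% identity over at least 50% of the transcript). *Fbl* had 2, and *Fcf1*, *Imp3* and *Npm1* had 1 each, so their values may hold shared reads. Protein sequences were not used here. Alternatives were pseudocounts of 0.1 and 0.01, minimum means of 1 and 5 FPKM, 3-fold, 4 scalings, the highest entry per symbol, and lists without *Nol3*, *Nol4* and *Nol4l* or without *Fcf1*. The script was tested on simulated data. Software was matplotlib 3.10.9, pandas 2.3.3, scipy 1.17.1, numpy 2.4.6 and Python 3.11.15.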

Additional observations from a re-analysis of the deposited data

How the results depend on the processing

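Genes above a floor of 1 FPKM in all libraries had median log2 changes from GV of 0.13 (MII), 0.14 (TubA-10) and 0.19 (TubA-20). Equal FPKM sums moved that of MII by 0.12, equal *Gapdh* moved those of MII and TubA-10 by 0.19 and 0.23, and against MII these scalings moved TubA-20 by −0.13 and −0.14. The median of the 48 genes in MII turned to 0.05 with equal FPKM sums, 0.14 with equal *Gapdh* and 0.02 with a mean of at least 5 FPKM, and in TubA-10 to 0.07 with equal *Gapdh* and 0.09 with that minimum. The number that rose in MII was 0 with the median change set to 0, 3 with equal FPKM sums, 2 with equal upper quartiles and 5 with equal *Gapdh*, beside 1.6%, 5.14%, 4.04% and 6.8% of all genes. In TubA-20 against GV 5 rose with equal *Gapdh* and 4 with a pseudocount of 0.1 or 0.01, beside 8.72%, 12.2% and 15.3% of all genes. With these pseudocounts 8 and 9 fell in TubA-20 against MII (7.59% and 13.4% of all genes), 11 fell against TubA-10 with either (11.3% and 17.4%), and 1 rose in TubA-10 against MII (2.97% and 7.76%). At 3-fold, 5 fell and 0 rose in MII (3.53% and 0.15% of all genes), 3 fell in TubA-10 (1.88%), 0 rose in TubA-20 against GV (0.524%) and 0 fell in TubA-20 against MII (0.278%). Without the 100 genes of highest mean, *Npm1* among them, GV kept a share of FPKM of 0.699%, MII 0.455%, TubA-10 0.447% and TubA-20 0.423%, so TubA-20 turned from the highest to the lowest cultured library. CACGTG or CACGCG was held by 13 promoter windows (35.1%, beside 15.9% of all coding genes and 22.3% of well-expressed ones). Of these 13 genes 3 (23.1%) fell in TubA-20 against GV, beside 15.5% of all coding genes with either motif and 22.4% of well-expressed ones. Of the other 24, 6 (25%) fell, beside 11.6% and 24.9% of those without. Of 224 summary values recomputed, 25 moved, which for a count or share means by over 1.5 times and for a median a changed sign (unless both values were within 0.05 of 0) or a shift that multiplies the FPKM ratio by over 1.5. Below that limit medians still varied, from −0.46 to −0.07 for TubA-20 against GV, −0.04 to 0.04 for TubA-10 against MII, −0.19 to −0.03 for TubA-20 against MII and −0.31 to −0.11 for TubA-20 against TubA-10. Of 1728 changes of single genes under the scalings and pseudocounts, 1677 kept their side of 2-fold, 47 passed it newly and 4 no longer passed it, and none that had passed it changed sign. No paired analysis was possible because each condition has 1 library. Levels near 1 FPKM rest on few fragments, so the changes of *Nop2*, *Nop16*, *Nol3* and *Nol11* are the least certain.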
